A study of Mus musculus with 26 samples.

Results

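The genes described here encode the machinery that copies DNA at the replication fork, together with the factors that fire replication origins. There are 46 of them among the 55487 genes of the deposited expression table, chosen by name from known function and not by a rule on measured values. Earlier results of these data were known when they were chosen. Copying starts when a kinase, Cdc7 with its partner Dbf4, and the firing factors Ticrr, Mtbp, Topbp1 and Recql4 turn a loaded helicase into a moving one by adding Cdc45 and the GINS complex. Polymerase alpha-primase then lays primers, polymerase epsilon extends the leading strand, polymerase delta extends the lagging strand on the sliding clamp Pcna, RPA covers single strands, Fen1, Dna2 and Lig1 join the Okazaki fragments, and Chaf1 and Asf1 put histones back. In cultured somatic cells, many of these genes are transcribed under E2F factors at the G1 to S transition, whereas a mouse blastomere has a short G1 and also holds RNA from the egg.

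RNA and replication state were read from the same single blastomeres of C57BL/6 mouse embryos at the 8-cell stage, made by in vitro fertilization and picked apart by hand. Of the 13 labelled cells, 9 had columns in the tables, 3 from embryo 1 (cells 1, 6 and 7) and 6 from embryo 2 (cells 2, 3, 5, 6, 7 and 8), and each embryo is 1 biological replicate, so differences are set beside the spread between cells and not tested. Nothing separated the embryos by treatment, and both were processed in parallel. The study placed its embryo 1 cells outside S phase and its embryo 2 cells in S phase, so cell cycle stage and embryo cannot be told apart. The embryo 1 cells were put in G1 or G2/M from uniform copy number profiles, so an unreplicated state in embryo 1 is a call on such a profile, in which genes before and after copying cannot be told apart.

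The replicated share of 40-kb bins was 3.54%, 0.927% and 0.00385% in cells 1, 6 and 7 of embryo 1, and ran from 62.4% to 80.5% in embryo 2. RNA levels are in TPM, a share of the cell's transcripts corrected for their length, so fewer transcripts and more RNA of other kinds cannot be told apart. Of 10 blastomere markers, 8 were above 1 TPM in every cell, among them Pou5f1, Nanog and Nlrp5, while Sox2 and Cdx2 were not. Of 8 cumulus or granulosa markers, 6 were listed at 0 in every cell, Fshr and Amh among them, and the summed level of all 8 was 0 in embryo 1 and at most 6.13 TPM in embryo 2. Xist lay between 139.95 and 180.72 TPM in embryo 1 and did not pass 0.9 TPM in embryo 2, and Ddx3y was at 0 in embryo 1 and at 15.65 TPM or more in embryo 2, which sets the columns of the embryos apart as labelled. This is the pattern of a female embryo 1 and a male embryo 2. Sex therefore cannot be told apart from embryo and cell cycle stage in any comparison of the embryos. The study lists the cells whose label numbers run from 11 to 17 (embryo 1 cell 1 and embryo 2 cells 2 and 3) under its scRR3 protocol, with the larger lysis volume, and those from 20 to 25 (the other 6 cells) under scRR1. Each range holds cells of both embryos, which makes it the technical split used below.

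Fork genes were abundant in both embryos. All 46 had a mean above 1 TPM over the 9 cells, and their median mean level was 30.8 TPM, against 9.70 TPM over the 13612 nuclear genes with a mean above 1 TPM, which serve as the background throughout. Above 1 TPM in every single cell were 41 of the 46 members (89.1%), where the background share was 52.9%. The other 5 were Pold4, Gins3, Clspn, Dna2 and Recql4. The mean passed 100 TPM for 6 members, lay between 10 and 100 TPM for 32 and below 10 TPM for 8. Together the members made up between 1934 and 2749 TPM of a cell.

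**Figure D1:**
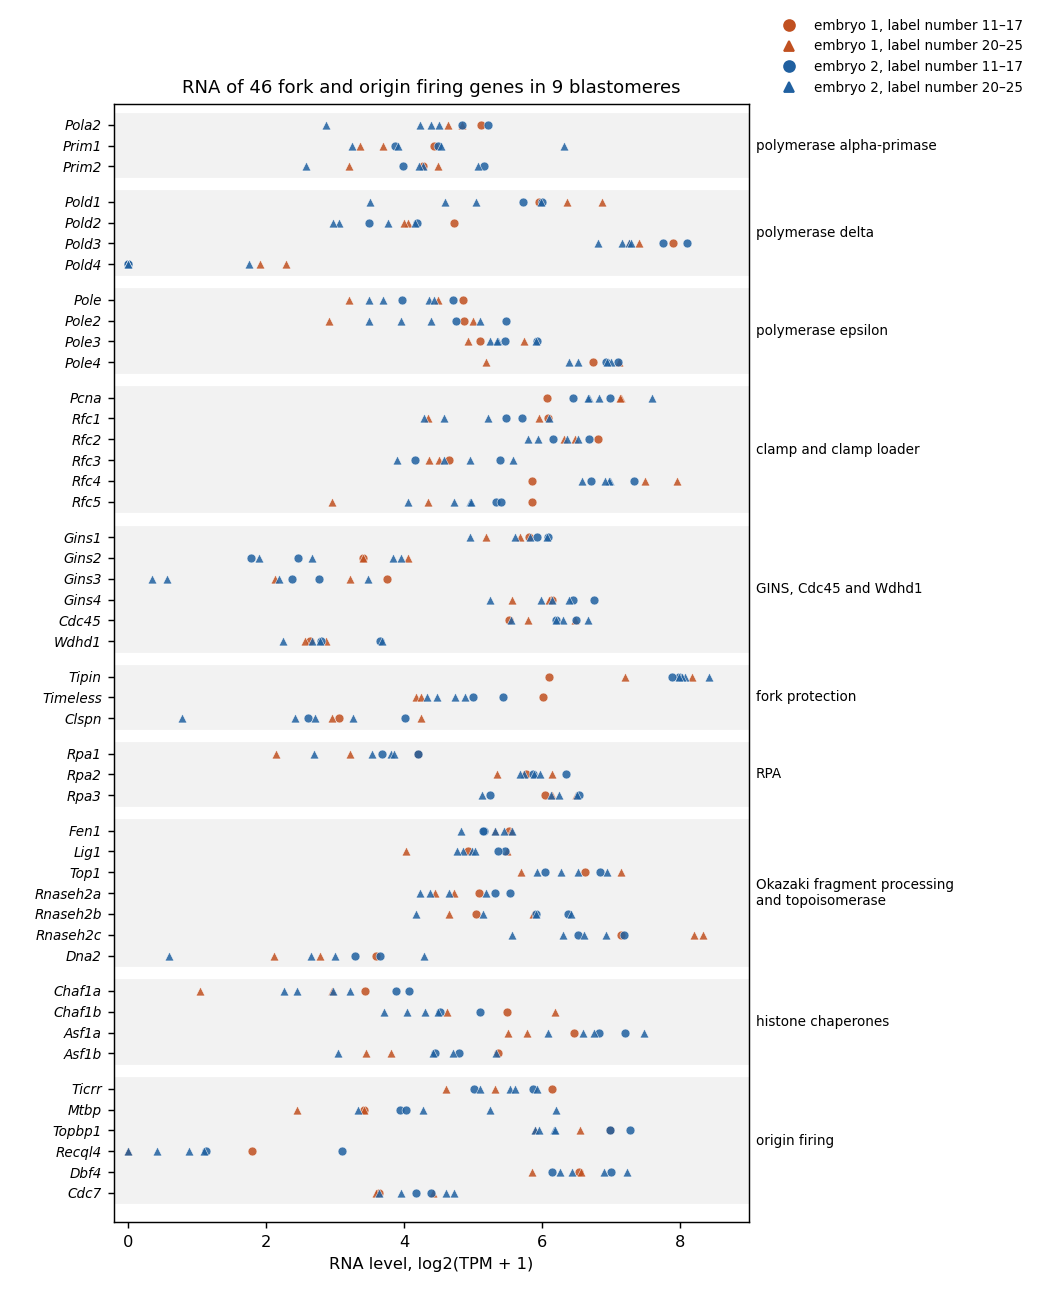
RNA level of each of the 46 genes on the log2(TPM + 1) scale, 1 point per cell, with genes in rows by role, orange for the 3 embryo 1 cells, blue for the 6 embryo 2 cells, circles for label numbers 11 to 17 and triangles for 20 to 25. The ranges of the orange and blue points overlap in every row, and Tipin at the high end and Pold4 and Recql4 at the low end bound the range.

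No fork gene separated the embryos. For none of the 46 did every embryo 2 cell lie above every embryo 1 cell, where 0.83% of background genes did, and for none did every embryo 2 cell lie below, where 2.51% did. The difference of embryo 2 minus embryo 1 in mean log2(TPM + 1) was above 0 for 27 members and below 0 for 19, with a median of 0.16 beside a background median of -0.04 and a median pooled SD between cells of 0.58. It passed the pooled SD for 9 members (19.6%), 3 upward and 6 downward, and the background share was 23.4%. Pold4, among the 6, met the mean above 1 TPM through embryo 1 alone, with means of 2.22 TPM there and 0.393 TPM in embryo 2. The summed level was 2407 TPM ± 206 (SD, n = 3 cells) in embryo 1 and 2391 TPM ± 300 (SD, n = 6 cells) in embryo 2, a difference of -16.7 TPM against a pooled SD of 276. The difference was 153 TPM with TPM rescaled without the mitochondrial genome, whose share of TPM ran from 4.28% to 6.77% in embryo 1 and from 5.98% to 18.2% in embryo 2, and 180 TPM with protein-coding transcripts alone, so its sign turned while it stayed within the SD. The empty counts are not fixed in every setting: with each cell centred on its median expressed gene, and likewise without embryo 2 cell 6, Asf1a and Mtbp lay higher in every embryo 2 cell (2 of 46, background 1.72% and 1.74%).

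In what follows, 3 embryo 1 values are those of cells 1, 6 and 7, and 3 embryo 2 values are the lowest, median and highest of the 6 cells. Of polymerase alpha-primase, the 3 members had means between 19.0 and 23.9 TPM, while the catalytic subunit Pola1, which is not a member, averaged 131 TPM. Pola2, the accessory subunit, stood at 33.7, 23.9 and 27.5 TPM in embryo 1, against 6.29, 20.9 and 36.3 TPM in embryo 2. Prim2, the large primase subunit, stood at 18.4, 8.20 and 21.6 TPM in embryo 1, against 4.96, 18.0 and 34.9 TPM in embryo 2. For both genes the embryo 2 cells spread to either side of embryo 1. Prim1, the catalytic primase, had 1 high cell, embryo 2 cell 8 at 78.6 TPM, while the other 8 cells lay between 8.47 and 22.2 TPM. In that cell 70.35 TPM came from the retained intron model Prim1-204, and its protein-coding Prim1 RNA, at 7.33 TPM, lay inside the range of the other embryo 2 cells, from 2.17 to 21.05 TPM.

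Polymerase delta subunits differed from one another far more than the embryos did. Pold3, a structural subunit (chr7:100082111-100121565, GRCm38), was at 238.4, 169 and 152 TPM in embryo 1, against 112, 154 and 275 TPM in embryo 2. Pold4, the smallest subunit, was at 0, 3.89 and 2.78 TPM in embryo 1 and was listed at 0 in 5 of the 6 embryo 2 cells, with 2.36 TPM in cell 5. Pold2 had its highest cell at 25.4 TPM, below the lowest cell of Pold3. All 4 subunits had lower means in embryo 2, also after either rescaling of the cells. For Pold3 the difference was small, at -0.12 against a pooled SD of 0.43, and in protein-coding TPM it was 0.12. Pold1, the catalytic subunit, was at 61.3, 81.5 and 116 TPM in embryo 1, against 10.4 to 63.3 TPM in embryo 2, so the ranges met only at embryo 1 cell 1, and its difference was -1.26 against a pooled SD of 0.86.

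For polymerase epsilon, the histone-fold subunits exceeded the catalytic one. Pole4 was at 106, 138 and 35.6 TPM in embryo 1, against 83.0, 122 and 137 TPM in embryo 2. Pole, the catalytic subunit, was at 27.8, 21.5 and 8.20 TPM in embryo 1, against 10.2, 17.2 and 25.3 TPM in embryo 2. The lowest cell for Pole4 was above the highest for Pole. Embryo 1 cell 7 was the lowest cell for Pole, Pole2, Pole3 and Pole4 alike.

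The sliding clamp and the 5 subunits of its loader summed to between 362 and 567 TPM in single cells. Pcna itself was at 66.4, 141 and 139.8 TPM in embryo 1, against 86.6 to 193 TPM in embryo 2. Rfc4, a loader subunit, was at 57.2, 247 and 180.1 TPM in embryo 1, against 95.1, 122 and 160.2 TPM in embryo 2, so the embryo 2 cells lay inside the embryo 1 range. Rfc3, the lowest loader subunit, was at 24.03, 19.6 and 21.7 TPM in embryo 1, against 13.9, 26.5 and 46.8 TPM in embryo 2. None of the 6 genes of this group passed its pooled SD between the embryos.

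The partners of the helicase split into an abundant and a scarce pair of GINS subunits. Gins1 and Gins4 had means of 52.0 and 69.96 TPM, while Gins2 and Gins3 had means of 8.63 and 5.41 TPM, and the lowest cell of Gins1, at 30.0 TPM, lay above the highest cell of Gins2, at 15.6 TPM, and of Gins3, at 12.5 TPM. Cdc45 was at 44.95, 88.2 and 54.6 TPM in embryo 1, against 45.9, 75.3 and 100.4 TPM in embryo 2. Gins3 was at 12.5, 3.38 and 8.33 TPM in embryo 1, against 0.27, 3.88 and 10.2 TPM in embryo 2. Neither separated the embryos. Wdhd1, which ties the helicase to polymerase alpha, averaged 6.76 TPM.

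Fork protection held the most abundant member and one of the scarcest. Tipin, which works with Timeless to hold the fork together, was at 67.9, 288 and 147 TPM in embryo 1, against 235, 257 and 343 TPM in embryo 2. The embryo 2 cells were all high, and 1 embryo 1 cell, cell 6, lay among them, with a difference of 0.90 against a pooled SD of 0.58. Clspn, the checkpoint adaptor at the fork, was at 7.32, 18.1 and 6.72 TPM in embryo 1, against 0.72, 5.29 and 15.2 TPM in embryo 2.

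The single-strand binding complex RPA works as a trimer, and its RNA levels were uneven. Rpa3 was at 64.9, 89.5 and 70.1 TPM in embryo 1, against 34.1, 72.3 and 92.4 TPM in embryo 2. Rpa1, the large subunit, was at 17.5, 3.41 and 8.29 TPM in embryo 1, against 5.49, 12.4 and 17.4 TPM in embryo 2. Every cell of Rpa1 lay below every cell of Rpa2 and of Rpa3, in either embryo.

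Okazaki fragment processing held the gene with the largest fall. Rnaseh2c, a subunit of the ribonuclease that cuts RNA out of DNA (chr19:5601873-5607019), was at 141, 295 and 321 TPM in embryo 1, against 46.6, 93.7 and 145 TPM in embryo 2. The embryos overlapped through a single pair of cells, embryo 2 cell 3 above embryo 1 cell 1, and the difference was -1.38 against a pooled SD of 0.59. Its partners did not follow, with differences of 0.13 for Rnaseh2a and 0.46 for Rnaseh2b, both within their pooled SD. In protein-coding TPM the rise of Rnaseh2b passed its pooled SD, at 0.74 against 0.70. Fen1, the flap nuclease, was the steadiest member, between 27.2 and 46.4 TPM over the 9 cells (coefficient of variation 0.16). Dna2, a nuclease for long flaps, was at 11.1, 3.35 and 5.91 TPM in embryo 1, against 0.5, 7.92 and 18.6 TPM in embryo 2.

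Among histone chaperones, Asf1a was the one whose higher mean in embryo 2 passed its pooled SD. It was at 87.4, 44.6 and 54.1 TPM in embryo 1, against 67.1, 109.8 and 178 TPM in embryo 2, and the embryos overlapped through embryo 1 cell 1, which lay above embryo 2 cell 6 alone. The difference was 0.91 against a pooled SD of 0.49. Chaf1b, a subunit of the assembly factor that rides on Pcna, went the other way, from a mean of 46.4 TPM ± 24.2 (SD, n = 3 cells) to 20.5 TPM ± 7.32 (SD, n = 6 cells), a difference of -1.07 against a pooled SD of 0.58. Its partner Chaf1a was at 9.81, 6.78 and 1.06 TPM in embryo 1, against 3.77 to 15.8 TPM in embryo 2, with a difference of 0.66 that did not pass the pooled SD of 0.92.

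Of the 6 origin firing genes, 5 had higher means in embryo 2 on the log2 scale (all 6 after either rescaling). In gene TPM 1 of them, Mtbp, passed its pooled SD. In protein-coding TPM Dbf4 alone did, at 0.46 against 0.43. Dbf4, which activates Cdc7, was at 91.6, 94.1 and 57.1 TPM in embryo 1, against 70.1, 102 and 149.9 TPM in embryo 2. Recql4, a helicase-like firing factor, was at 2.46, 0 and 0 TPM in embryo 1, against 0, 0.99 and 7.62 TPM in embryo 2. Mtbp, the partner of Ticrr, had the largest rise, from 9.75, 4.46 and 9.66 TPM in embryo 1 to between 9.12 and 72.4 TPM in embryo 2, a difference of 1.41 against a pooled SD of 0.93. The lowest embryo 2 cell for Mtbp, cell 6, lay below 2 embryo 1 cells, and the other 5 lay above all 3. Most of the Mtbp TPM came from the processed transcript Mtbp-202, at 66.02 of the 72.4 TPM in cell 5, and its protein-coding RNA had means of 2.27 TPM in embryo 1 and 3.40 TPM in embryo 2, a difference of 0.48 that did not pass its pooled SD of 1.03.

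More members parted along the technical split than between the embryos. Every cell numbered 11 to 17 lay above every cell numbered 20 to 25 for 7 of the 46 members (15.2%), where the background share was 6.13%, and the reverse held for none, where the background share was 1.24%. The 7 were Pola2, Pold3, Rfc5, Timeless, Chaf1a, Topbp1 and Recql4. Recql4 met the mean above 1 TPM through the first range alone, with means of 3.75 TPM there and 0.387 TPM in the second. It therefore adds no support to this count. Topbp1, which helps to recruit Cdc45 (chr9:103305215-103350428), ran from 126 to 155 TPM in the 3 cells of the first range and from 58.5 to 92.5 TPM in the 6 of the second, a difference of 0.98 against a pooled SD of 0.23. Pold3 ran from 215 to 275 TPM and from 112 to 169 TPM, a difference of 0.72 against 0.20. Pola2 parted by a hair, with 27.55 TPM as the lowest cell of the first range and 27.52 TPM as the highest of the second. The median member difference between the ranges was 0.41, with 35 members above 0 and 11 below, beside a background median of 0.29. With each cell centred on its median expressed gene, which takes that common shift out, Topbp1 alone still parted (background 2.52%), and the median member difference was 0.10 beside -0.02.

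**Figure D2:**
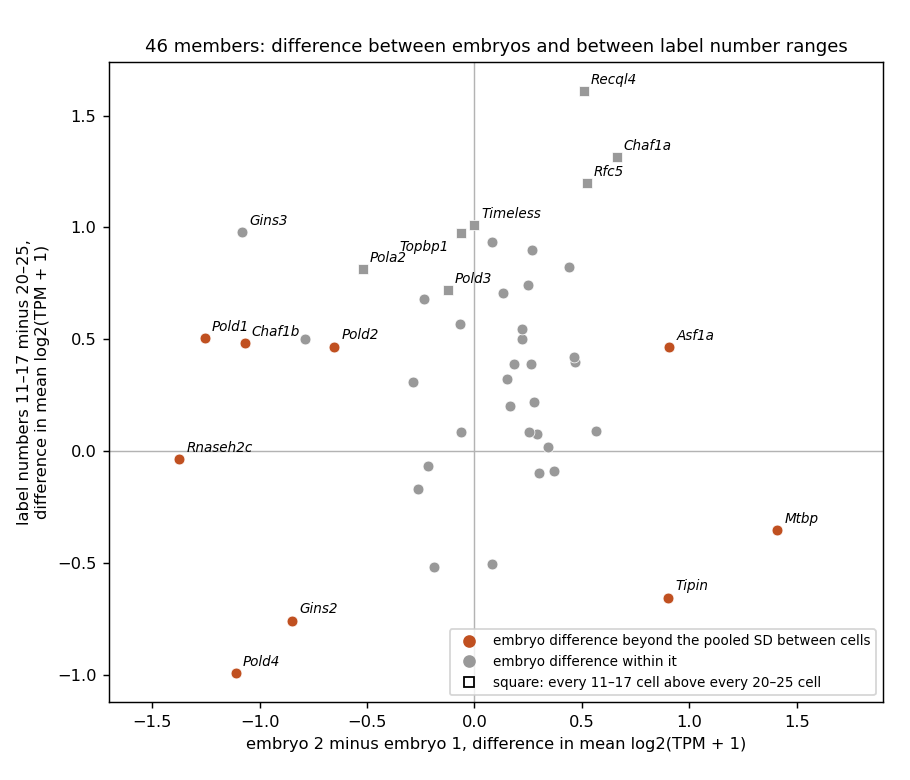
Difference between embryos (horizontal axis) against difference between label number ranges (vertical axis), both in mean log2(TPM + 1), 1 point per gene for the 46 members, orange where the embryo difference passed the pooled SD between cells and square where the ranges did not overlap. The 9 orange points lie to both sides of 0, while the 7 squares all lie at 0.72 or above on the vertical axis and none of them is orange.

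Because of this split, the embryos were also compared within each range. Among the 6 cells numbered 20 to 25, Rnaseh2c, Pold1, Pold4, Pola2, Rfc4 and Chaf1b lay lower in all 4 embryo 2 cells than in both embryo 1 cells, 6 members (13.04%) where the background share was 8.7%, and Timeless and Asf1a lay higher, 2 members (4.35%) where it was 5.93%. Pold4 met the mean above 1 TPM through embryo 1 alone and adds no support to the first count. Among the 3 cells numbered 11 to 17, embryo 1 is a single cell.

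The replicated share did not order the summed level of these genes within embryo 2. In rising order of replicated share (62.4%, 74.2%, 76.9%, 77.8%, 78.7% and 80.5%), cells 6, 3, 5, 2, 8 and 7 held 1934, 2749, 2471, 2629, 2171 and 2391 TPM of the 46 genes. Over these 6 cells Pearson's r was 0.56 and Spearman's rho was -0.03, and without cells 6 and 7, farthest from the median share, r was -0.79 over 4 cells, so the relation rests on those cells. Gene by gene, the rank correlation with the replicated share was above 0 for 28 of the 46 members (60.9%), beside 57.7% of background genes. Without cell 6 it was above 0 for 13 (28.3%), beside 46.6% of background genes. The highest was that of Top1, which relaxes DNA ahead of the fork, at 0.83. It was the 1 member of 46 above 0.8, where 4.97% of background genes were, so it is not read as a link to replication.

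**Figure D3:**
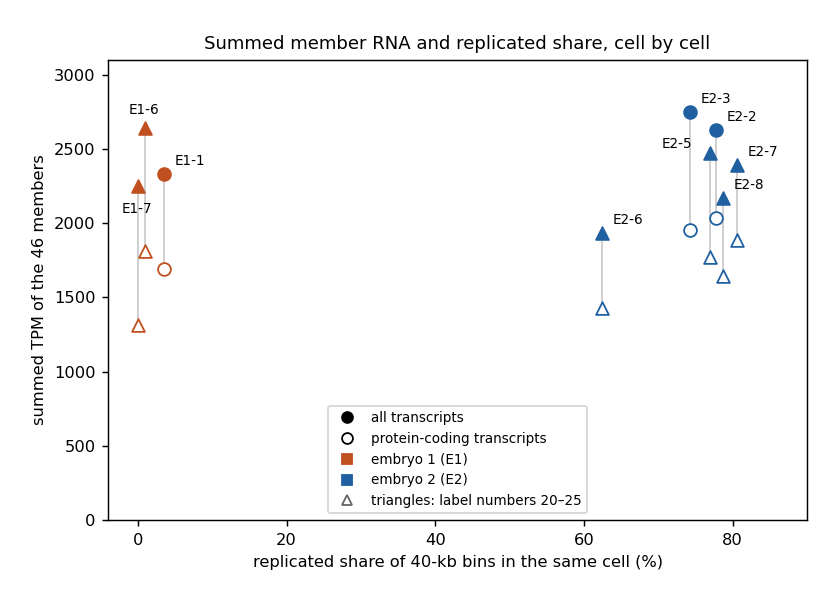
Summed TPM of the 46 genes in each of the 9 cells (vertical axis, from 0) against the replicated share of bins in the same cell in percent, filled symbols for all transcripts and open symbols for protein-coding transcripts, orange for embryo 1 and blue for embryo 2, triangles for label numbers 20 to 25. The filled symbols of embryo 1 lie between 2253 and 2641 TPM, inside the embryo 2 range of 1934 to 2749 TPM.

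Cell 6 of embryo 2, the least replicated of the 6, was also most often the lowest in RNA. It was the lowest embryo 2 cell for 19 members (41.3%), against 21.3% of background genes, and with each cell centred on its median expressed gene for 9 (19.6%), against 14.4%. The next was cell 8 with 11 members (23.9%), against a background of 17.7%. Cell 5 was lowest for 7 members (15.2%, background 13.7%), cell 3 for 3 (6.52%, background 9.58%), cell 7 for 3 (6.52%, background 8.21%) and cell 2 for 2 (4.35%, background 6.42%). Cell 6 also had the fewest genes above 1 TPM of the 6, at 11058, where the others had 11185 to 12978, and 1264 bins without a replication state, where the others had 107 to 181. The part of either in its RNA values was not tested.

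Most fork genes had themselves been copied by then. Bins were given for 40 of the 46 genes, and the 6 without bins were Prim1, Timeless, Dna2 and Asf1a on chromosome 10 and Pole4 and Rpa3 on chromosome 6. All 6 embryo 2 cells had the gene replicated for 30 of the 40 (75%), beside 72.7% of background genes with bins, so fork genes stood close to other expressed genes. The other 10 fell out through single cells. Cell 6 alone was unreplicated at 8 of them, Pola2, Pole3, Rfc3, Gins4, Rnaseh2b, Rnaseh2c, Mtbp and Dbf4. Cell 8 alone was unreplicated at Chaf1b (chr16:93883901-93906115), and the single bin of Recql4 had no state in cell 3. In cell 6 itself 32 of the 40 genes (80%) were replicated, against 80.5% of background genes.

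**Figure D4:**
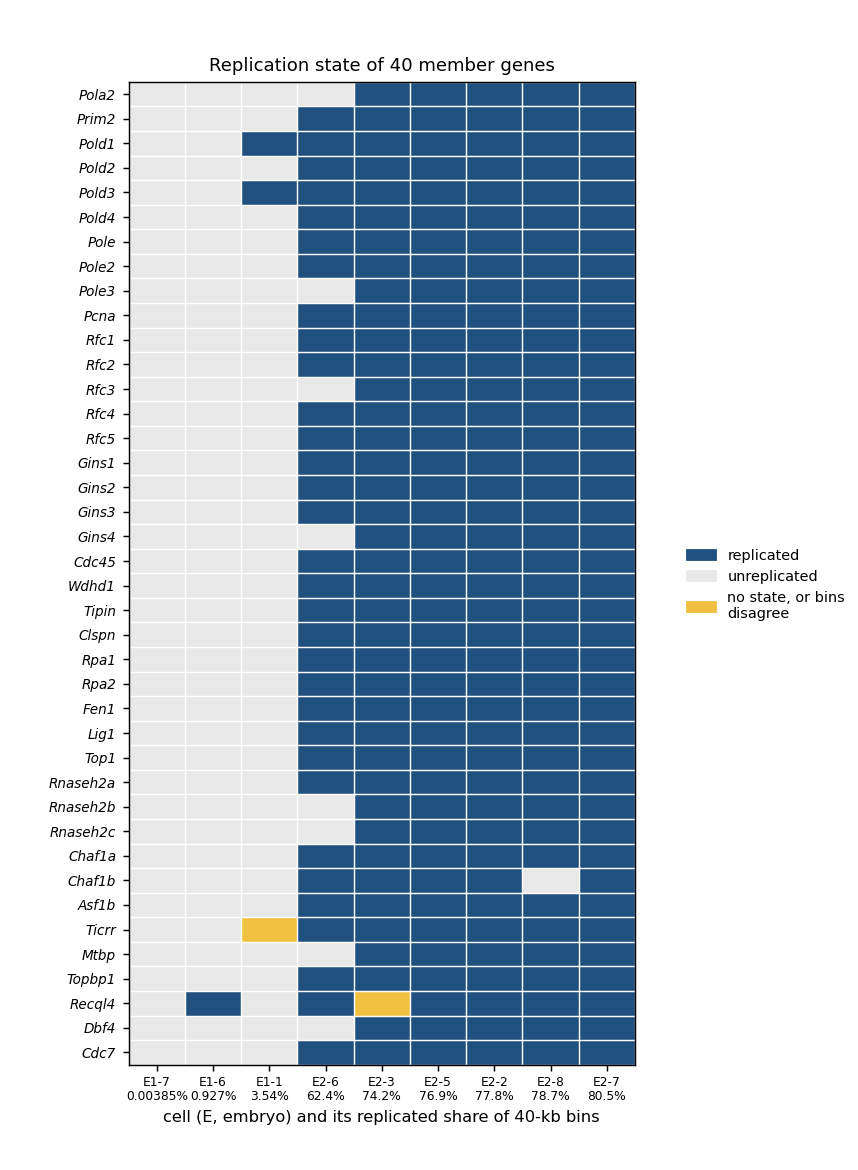
Replication state of the 40 member genes with bins (rows) in the 9 cells (columns, ordered by the replicated share printed under each), blue for replicated, gray for unreplicated and yellow where the bin had no state (Recql4) or the bins disagreed (Ticrr). Gray cells within embryo 2 (E2) lie in the column of cell 6, with 8 genes, and at Chaf1b in cell 8.

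In embryo 1, where the copy number profiles are uniform, 36 of the 40 genes were called unreplicated in all 3 cells. The share over background genes is not given here. With at most 3.54% of bins called replicated in these cells, the count is not particular to fork genes. Pold1 and Pold3, both on chromosome 7, were called replicated in cell 1, the 2 bins of Ticrr on the same chromosome disagreed there, and Recql4 was called replicated in cell 6. In gene TPM, Pold1 was not high in cell 1, at 61.3 TPM against 81.5 and 116 TPM in the other embryo 1 cells. Its protein-coding TPM was, at 44.3 against 19.3 and 18.3. Pold3 was high there, at 238.4 TPM against 169 and 152 TPM. Cell 1 is also the only embryo 1 cell numbered 11 to 17, the range in which every cell was higher for Pold3. The replicated call and the protocol therefore cannot be told apart here. For the 8 genes unreplicated only in cell 6 of embryo 2, the RNA of cell 6 was below the mean of the other 5 cells for 6 genes, with a median difference of -0.22 in log2(TPM + 1). For the 30 genes replicated in all 6 cells it was below for 24, with a median of -0.39. The median over all background genes was -0.31, and the share of them below that mean is not given here.

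Gene TPM sums every annotated transcript, and for several fork genes most of it came from models that are not protein-coding. Over the 9 cells, protein-coding transcripts made up 72.1% of the members' summed TPM. Their share ran from 71.1% to 77.5% in cells numbered 11 to 17 and from 58.4% to 78.9% in those numbered 20 to 25. The part of the scRR1 lean toward the 3′ end in the transcript classes was not tested. The median protein-coding share per gene was 81.3% over the 40 members above 1 TPM in every cell with 2 or more transcripts. It was 87.9% over protein-coding genes chosen the same way. The leading transcript by mean TPM was not protein-coding for 9 of these 40 (22.5%), and the background share was 21.3%. With transcripts ranked by TPM times length, which follows reads more closely, the counts were 5 of 40 (12.5%) and a background share of 12.5%, since protein-coding models then led Pold1, Pole4, Rfc4 and Lig1. By mean TPM, 7 of the 9 leading models were of the retained intron class, in Pold1, Rfc2, Rfc4, Gins2, Timeless, Lig1 and Rnaseh2c, and those of Pole4 and Mtbp were processed transcripts.

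**Figure D5:**
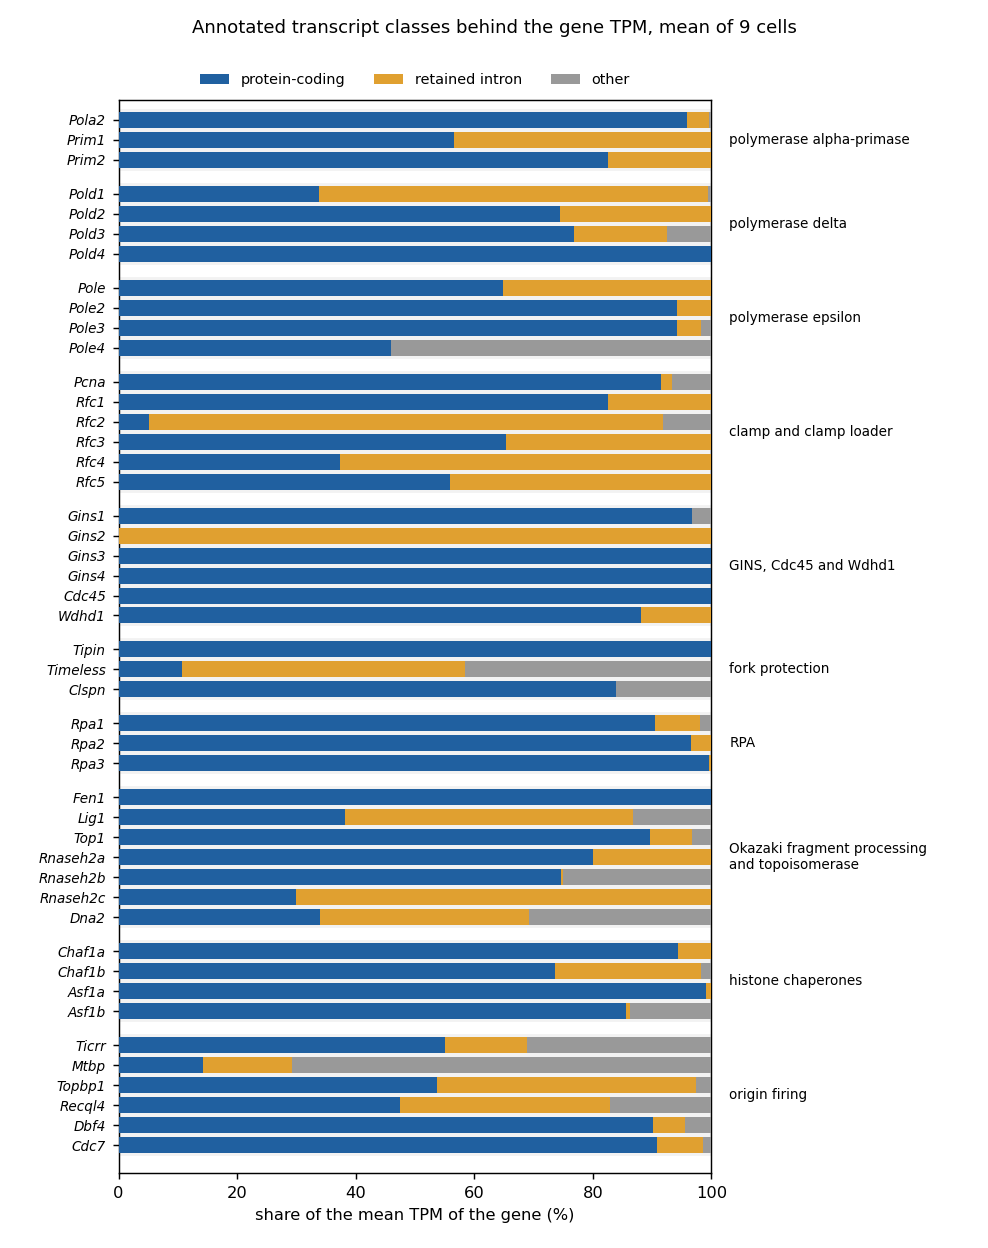
Share of the mean gene TPM (in percent, 9 cells) carried by protein-coding (blue), retained intron (orange) and other (gray) transcript models for each of the 46 genes, in rows by role. Tipin, Fen1 and Gins4 are blue throughout, while the blue share is 5.15% for Rfc2, 10.6% for Timeless and 0% for Gins2.

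The models behind a gene's TPM differed from member to member. For Rfc2, the retained intron model Rfc2-204 led in all 9 cells with 64.8% of the gene's TPM, and protein-coding Rfc2-201 averaged 4.23 TPM of the gene's 82.05 TPM. For Gins2, the protein-coding model Gins2-201 was listed at 0 in every cell, and the gene's 8.63 TPM came from Gins2-203 and Gins2-204, both of the retained intron class. Tipin, by contrast, drew 90.4% of its TPM from the protein-coding model Tipin-201, which led in every cell. One transcript led in all 9 cells for 13 of the 40 members (32.5%), beside 34.8% of background genes.

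Exon to intron boundaries kept inside 4 of these leading models are shown because reads across them tell such RNA from spliced mRNA. Each line gives 15 coding exon bases and 15 intron bases from the GRCm38.p6 genome of RefSeq, on the strand of the gene, 5′ to 3′, with the first or last pair of intron bases in capitals. Pold1 intron 23 (87 bases, chr7:44533870-44533899, minus strand) and Gins2 intron 1 (86 bases, chr8:120588911-120588940, minus strand) lie whole inside an exon of the leading model and are shown at their start. The introns of Lig1 (intron 24, chr7:13307504-13307533) and Rnaseh2c (intron 1, chr19:5602435-5602464), both on the plus strand, are held in part and are shown at their end.
Pold1: agtctgtgctgctgcGTaagtggaccgccc
Gins2: atctacctgatcgggGTgagccagggcggt
Lig1: acttccctcctccAGctgaagaaggactac
Rnaseh2c: cccggccttttccAGgaccgccttatcggg
The introns open with GT or close with AG, the usual splice site letters.

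The comparisons were repeated on protein-coding transcripts alone. Of 44 members with a coding mean above 1 TPM, none lay higher in every embryo 2 cell (background 0.993%), and 1, Rnaseh2c, lay lower in every one (background 2.61%). Its protein-coding TPM was 59.1, 93.95 and 67.7 in embryo 1, against 16.4 to 50.6 in embryo 2, and its retained intron model Rnaseh2c-203 was at 81.5, 201 and 253 TPM in embryo 1, against 29.2 to 118 TPM in embryo 2, so both classes were lower, with the retained model overlapping between embryos. Rnaseh2c overlaps Kat5 on the other strand, and it is not alone in this. In all, 23 members overlap a gene on the other strand, among them Mtbp, Asf1a, Rfc4, Timeless, Recql4 and Lig1. Whether the counting used strand is not given in the sources used here. If it did not, RNA of the overlapping genes cannot be told apart from that of these members. Between the label number ranges, coding transcripts parted for 4 members upward, Pold3, Lig1, Chaf1a and Mtbp (9.09%, background 7.64%), and for none downward (background 1.3%), so Topbp1, Timeless, Rfc5 and Pola2 no longer did. The median difference between the ranges was larger, though, at 0.61 beside a background median of 0.35, where gene TPM gave 0.41 beside 0.29. Of the 9 members whose embryo difference passed the pooled SD in gene TPM, 6 also passed it in protein-coding TPM, and the other 3 were Pold1, Gins2 and Mtbp. Pole3, Rnaseh2b and Dbf4 passed it narrowly in protein-coding TPM only, all upward. Their differences were 0.377 against 0.374, 0.74 against 0.70 and 0.46 against 0.43. The share of background genes that passed the pooled SD in protein-coding TPM is not given here. The counts of members passing it are therefore not read as particular to fork genes.

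Promoter windows were searched for the E2F motif, since E2F sites are known from many replication genes. RefSeq windows of 300 bases, from 250 before to 50 after the annotated start (GRCm38.p6), matched 36 of the 46 members by symbol. The letters TTTCGCGC or TTTGGCGC, on either strand, stood in 5 of the 36 (13.9%), in 0.929% of all 27025 genes in the table and in 1.88% of the 8689 of these with a mean above 1 TPM. Both runs hold CpG, a C followed by a G. The median CpG count per window was 26.5 in members, 22 in the expressed genes and 8 in all genes. The part of this in the E2F share was not tested. The CCAAT box, on either strand, stood in 17 of the 36 (47.2%), in 41.1% of all genes and in 43.5% of the expressed ones. The 5 E2F matches are shown with 11 bases on either side, on the strand of the gene, with the motif in capitals, as the matches behind that count. They lie at chr4:126556990-126557019 for Clspn, chr7:13278841-13278870 for Lig1, chr12:69228162-69228191 for Pole2, chr5:151651200-151651229 for Rfc3 and chr9:103305187-103305216 for Topbp1.
Clspn: accgcgtctggGCGCGAAAgctcgaacttc
Lig1: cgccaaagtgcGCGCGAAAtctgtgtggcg
Pole2: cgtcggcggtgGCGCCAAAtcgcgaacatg
Rfc3: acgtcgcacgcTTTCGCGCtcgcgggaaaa
Topbp1: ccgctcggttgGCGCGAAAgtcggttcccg
The 5 genes ran from a mean of 7.95 TPM for Clspn to 91.3 TPM for Topbp1, and none of them passed its pooled SD between the embryos. A match is a run of letters and does not show that a factor binds there.

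Other replication genes, taken as a list of 31 symbols for the helicase, licensing factors and chromatin partners, gave similar counts. Of 31 identifiers with a mean above 1 TPM, 1 lay higher in every embryo 2 cell (background 0.83%), none lay lower (background 2.51%), and 4 passed their pooled SD (background 23.4%), with a median difference of 0.07. The 1 was Orc5, a subunit of the origin recognition complex, between 11.9 and 17.4 TPM in embryo 1, against 27.6 to 77.6 TPM in embryo 2. Between the label number ranges, 6 lay higher in the first range (background 6.13%), among them the helicase subunits Mcm2 and Mcm5 and the helicase-associated factor Mcm10, and 1, Orc4, lay lower (background 1.24%).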

How the data were processed

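The members and gene lists were chosen with earlier results of these data known. The authors deposited TPM per gene and per transcript for each cell (reads set to a common number, Hisat and RSEM within the ramdaq pipeline, GENCODE vM25), so read depth is not kept and counting intervals were not computed. They also deposited a replication state score (1, 0 or -1) for each of 51976 bins of 40 kb on 17 chromosomes (BWA 0.7.17-r1188 per the submitters' processing notes, states from AneuFinder). In each table, 14 columns carried no label of this series and were not used, and 4 labelled cells were not analysed here. RNA columns were assigned by the number closing the label, since their headers repeat 1 embryo and cell. No pair of RNA columns held equal values.

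Differences are in mean log2(TPM + 1), which understates changes of low genes, beside the SD between cells within groups, pooled. A gene was called where all cells of one group lay above all of the other, among nuclear genes with a mean above 1 TPM. The replicated share is replicated bins over bins with a state, and a gene took the sign of the mean over its bins (GENCODE M21 positions, same build). The coefficient of variation is SD over mean. No p-values were computed. The measures were tested on simulated data with independent noise for each gene and planted changes larger than any member difference between the embryos. That test does not cover changes of the size reported here. Values per cell are given for the highest and lowest member of each role and for those at 0 in 3 or more cells, and other members were named after their values were seen. Python 3.11.15, numpy 2.4.6, pandas 2.3.3, scipy 1.17.1 and pysam 0.24.0 were used.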

Additional observations from a re-analysis of the deposited data

Results flagged for a closer look

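Among the 6 cells of embryo 2, each of the 46 members, their summed TPM and the replicated share were checked for a single cell standing far from the other 5, by its gap to the nearest cell as a share of the whole range (Dixon's test). Chance alone gives such a cell in about 1 in 20 groups if values are normally distributed, and 7 of the 48 groups had one, 6 of them members. TPM was used without logarithm and need not be normal, and no share over background genes is given. The 7 are therefore listed for inspection and not read as an excess. Prim1 was at 78.55 TPM in cell 8, where the other 5 cells lay between 8.47 and 22.15 TPM. Of this, 70.35 TPM was the retained intron model Prim1-204, and protein-coding Prim1 was at 7.33 TPM there, inside the range of the others, from 2.17 to 21.05 TPM. Pcna was at 192.69 TPM in cell 5, where the others lay between 86.59 and 125.8 TPM, and its protein-coding Pcna, at 120.96 TPM, lay inside the range of the others, from 80.0 to 121.19 TPM. Tipin was at 342.73 TPM in cell 7, where the others lay between 234.99 and 267.39 TPM. Rpa2 was at 80.4 TPM in cell 3, where the others lay between 50.42 and 61.5 TPM. Recql4 was at 7.62 TPM in cell 2, where the others lay between 0 and 1.18 TPM. Pold4 was at 2.36 TPM in cell 5 and listed at 0 in the others, so its gap is the whole range. The replicated share was 62.4% in cell 6, where the others lay between 74.2% and 80.5%. The 6 member values fell in 5 different cells, and all 6 were the highest of their group.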

How the results depend on the processing

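Of 122 alternative values for the 10 results, 105 stayed within the spread between cells or within 1.5 times the count. With 1 biological replicate per stage, cells and not embryos set the spread, and the TPM tables keep no read depth, so a gene at 0 may have been missed. The difference in summed TPM changed sign with the cells used, from -94.0 to 100.1 TPM when 1 cell was left out, and was 360.3 TPM among label numbers 11 to 17, -205 TPM among 20 to 25, 153 TPM after rescaling without the mitochondrial genome and 180 TPM with protein-coding transcripts. The median member difference between embryos ranged from -0.0048 to 0.26 when 1 cell was left out. Members higher in every embryo 2 cell numbered 0 to 2 when 1 cell was left out (backgrounds 1.02% to 4.15%), 2 after centring on the median gene, 2 among label numbers 20 to 25 and 18 among 11 to 17, where single cells are compared and the background was 26.9%. Members lower in every embryo 2 cell numbered 0 to 4 when 1 cell was left out (4, or 8.70%, without embryo 1 cell 1, background 4.62%, and backgrounds of 2.92% to 5.96% for the others), 6 among label numbers 20 to 25, 13 among 11 to 17 (background 37.2%) and 1 with protein-coding transcripts alone. Members ranked positively with the replicated share numbered 13 to 32 when 1 cell was left out, the lowest without cell 6 (28.3%, background 46.6%). Members led by a transcript that is not protein-coding numbered 5 when transcripts were ranked by TPM times length. The counts from protein-coding transcripts and the ranking of transcripts by TPM times length were chosen after seeing the data. No paired analysis was possible because no result comes from a test and a cell number names different cells in each embryo.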
